A study of Mus musculus with 2 samples.

Results

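The genes described here are 5 members of the CCN family of secreted matricellular proteins and 5 targets of the transcriptional coactivator YAP. They were chosen by symbol, as Ctgf, Cyr61, Nov, Wisp1, Wisp2, Ankrd1, Amotl2, Ajuba, Lats2 and Axl, and all 10 had a row among the 44792 gene rows of the count table. RNA sequencing counts came from OCCM-30, an immortalized mouse line of cementoblast-like cells, labelled wild type, with 1 library of cells under compressive force and 1 library of control cells. Cementoblasts build cementum, the mineralized layer that covers the tooth root. The strength and duration of the force are not stated in the labels used here.

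YAP and its partner TAZ (Wwtr1) are coactivators that enter the nucleus and bind DNA through TEAD factors. Kinases of the Hippo pathway, LATS1 and LATS2, phosphorylate them and keep them in the cytoplasm, and cell stretch, spreading and stiff substrates are known to favour the nuclear pool. CCN proteins sit in the matrix between cells, where they bind integrins, proteoglycans and growth factors. In bone and tooth-supporting tissue they are known for roles in adhesion, matrix formation and repair, and Ctgf and Cyr61 are the targets most often read as a measure of YAP activity.

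The TEAD core motif was searched in promoter windows, since TEAD factors are known to bind many of these genes through this letter pattern. RefSeq sequences on GRCm38.p6, 300 bases long with 250 before and 50 after the annotated start, were held for 6 of the 10 genes, namely Ankrd1, Cyr61, Amotl2, Ajuba, Lats2 and Axl. Ctgf, Nov, Wisp1 and Wisp2 had no entry. The 250 upstream bases of the 4 genes with the lowest ratios among these 6 are shown 5′ to 3′ on the gene's strand, with each CATTCC or GGAATG in capitals, GGAATG being the same motif on the opposite strand. They lie on GRCm38.p6 at chr19:36119845-36120094 (Ankrd1, minus strand), chr3:145649986-145650235 (Cyr61, minus strand), chr9:102717554-102717803 (Amotl2, plus strand) and chr14:54577662-54577911 (Ajuba, minus strand).
Ankrd1: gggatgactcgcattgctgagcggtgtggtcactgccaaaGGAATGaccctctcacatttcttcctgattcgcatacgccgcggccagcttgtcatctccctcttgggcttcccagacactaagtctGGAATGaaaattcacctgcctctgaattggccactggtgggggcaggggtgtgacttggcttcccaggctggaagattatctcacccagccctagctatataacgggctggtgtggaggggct
Cyr61: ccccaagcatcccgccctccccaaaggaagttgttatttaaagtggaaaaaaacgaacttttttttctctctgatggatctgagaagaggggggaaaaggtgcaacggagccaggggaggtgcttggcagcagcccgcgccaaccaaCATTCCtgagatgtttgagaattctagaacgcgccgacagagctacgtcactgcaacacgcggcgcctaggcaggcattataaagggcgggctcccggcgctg
Amotl2: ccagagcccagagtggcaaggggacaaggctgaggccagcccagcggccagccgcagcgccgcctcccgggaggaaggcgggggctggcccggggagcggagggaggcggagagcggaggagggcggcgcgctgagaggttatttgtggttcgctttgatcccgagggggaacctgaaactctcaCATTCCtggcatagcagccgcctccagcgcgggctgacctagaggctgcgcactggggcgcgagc
Ajuba: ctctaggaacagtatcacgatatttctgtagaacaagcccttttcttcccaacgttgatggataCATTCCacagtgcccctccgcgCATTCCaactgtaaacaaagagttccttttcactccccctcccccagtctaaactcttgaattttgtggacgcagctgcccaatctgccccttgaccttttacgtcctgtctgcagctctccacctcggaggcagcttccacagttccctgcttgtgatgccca
For Lats2 and Axl the 30 bases around the site are enough to show it, in the same orientation.
Lats2: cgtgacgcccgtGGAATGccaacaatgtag
Axl: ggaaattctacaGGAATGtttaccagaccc

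All 6 genes held the motif in at least 1 window. The same was true of 16.6% of the 27025 genes with a window and 14.2% of the 9654 that also passed the expression minimum used below. Ankrd1 had a pair of sites at positions -210 to -205 and -123 to -118 from the start, and Ajuba a pair at -186 to -181 and -164 to -159. Cyr61 had 1 site at -103 to -98 and Amotl2 1 site at -65 to -60. In Axl the site lay farthest upstream, at -233 to -228, and in Lats2 it lay after the start, at 5 to 10. These positions hold only for the annotated start used for each window. For Amotl2, Axl and Lats2 that start lies inside the gene span given below. The upstream bases of Axl and Lats2 therefore overlap the span in part, and those of Amotl2 lie wholly within it. A second annotated start of Lats2 had no match in its window. A match of letters is not a measured binding site.

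**Figure D1:**
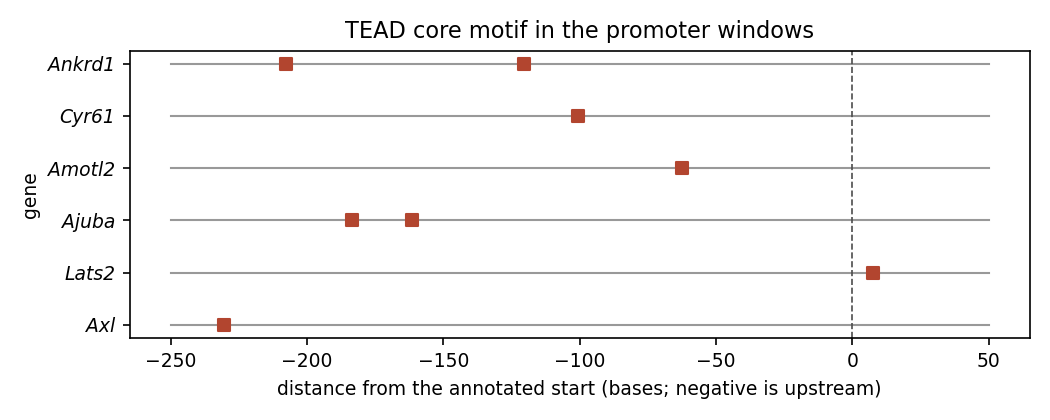
Position of the TEAD core motif, CATTCC on either strand, in the 300-base promoter windows of the 6 genes that had one. The x axis is the distance in bases from the annotated start and each square is 1 site. Ankrd1 and Ajuba show 2 sites each, and the Lats2 site falls after the start.

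Across all genes the motif did not go with a lower median ratio in the compressed library. The 1369 genes that passed the expression minimum, held a site and were not among the 10 had a median log2 ratio of compressed to control of 0.01, against -0.01 for the 8279 genes without a site. Of these 1369 genes 49.0% had a ratio below 1, against 51.3% of the genes without a site. Genes with 2 or more sites, again without the 10, numbered 128 and had a median log2 ratio of 0.01. Of those 128 genes 7.81% were at least 1.5-fold lower with a counting interval below 1, against 2.92% of the genes without a site. Among the 1369 genes that share was 3.29%. The upper quartile of the log2 ratio was 0.27 for the 128 genes and 0.20 for the genes without a site. Genes called higher were not counted by site, and the difference was not tested.

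All 10 genes were less abundant in the compressed than in the control library, with differences that ranged from small to close to 2-fold. The ratio of CPM, the count scaled to library size, compressed over control, ran from 0.535 for Ankrd1 to 0.952 for Axl, with a median log2 ratio of -0.51. Over the 14001 genes with at least 1 CPM in either library the median log2 ratio was -0.01 and 51.4% had a ratio below 1, as did 53.3% of the 10817 genes with a mean of at least 5 CPM, a level that all 10 genes reached. The interval given with each ratio is the exact 95% conditional binomial interval, and it covers counting error only. It lay below 1 for 9 of the 10 genes, against 28.6% of those 14001 genes and 33.5% of those 10817. With 1 library in each group there is no replicate check and no test, so each value describes this pair of libraries.

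The 10 genes were also set against 2 limits of fold. At a limit of 1.5-fold, with an interval that excluded 1, 3 of 10 were lower, namely Ankrd1, Wisp2 and Cyr61, and 0 were higher. The same limit called 3.74% of the 14001 genes lower and 7.34% higher. At a limit of 2-fold 0 of 10 were called in either direction, against 1.01% lower and 3.11% higher over all genes. Among the 11008 genes with at least 5 CPM in either library, the 1.5-fold limit called 2.11% lower and 4.99% higher, and the 2-fold limit 0.118% lower and 1.42% higher. Cyr61, with a ratio of 0.647, lay just inside the limit of 0.667, and Amotl2, with 0.677, just outside it. The 10th percentile of the log2 ratio over 10085 mRNAs with a mean of at least 5 CPM was -0.34, and 8 of the 10 genes lay below it, the exceptions being Nov and Axl.

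**Figure D2:**
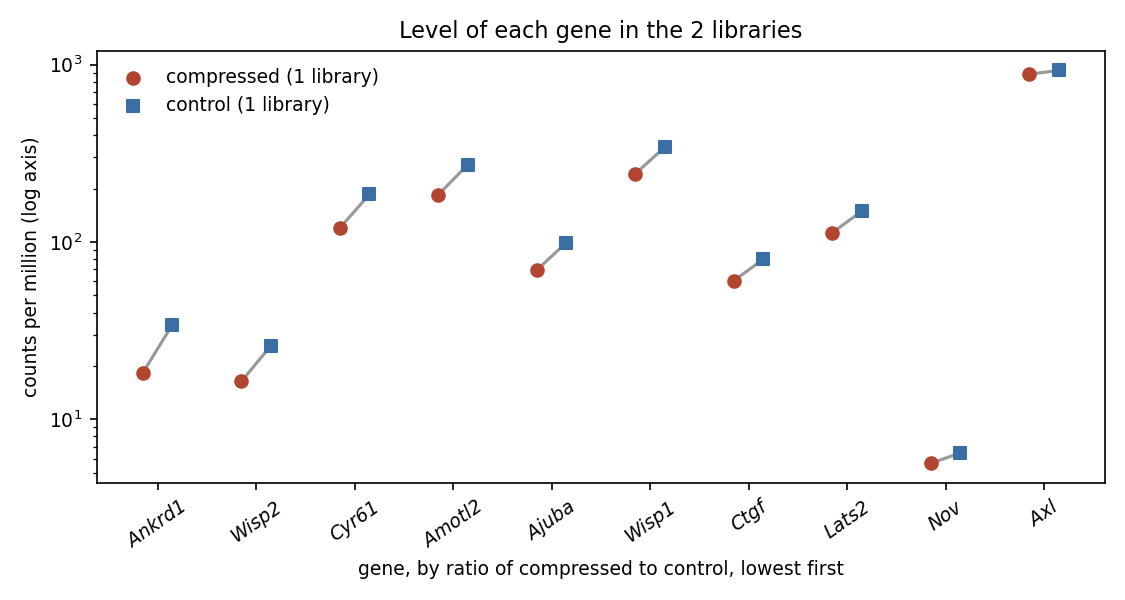
Level of each of the 10 genes in the compressed library (circles, left of each pair) and the control library (squares, right of each pair), in CPM on a log axis, with genes ordered from the lowest ratio to the highest. Each pair slopes up toward the control library, most steeply for Ankrd1, with 18.3 CPM in compressed cells and 34.2 CPM in control cells.

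Depth was near equal, with 24296292 counts in compressed cells and 25049919 in control cells. Cementoblast and osteoblast markers were partly present: Col1a1, Runx2, Spp1, Alpl and Sp7 passed 1 CPM, Bglap had 12 counts in compressed cells and 11 in control cells, and Ibsp had 0 in both. Of the 5 above 1 CPM, Runx2 had an interval below 1, with a ratio of 0.787 (0.757 to 0.819). Intervals lay above 1 for Spp1, at 1.10 (1.06 to 1.15), and Col1a1, at 1.03 (1.02 to 1.04). Over the 14001 genes 28.6% had an interval below 1 and 26.3% above 1. The 10 markers of other cell types summed to 19.8 CPM in compressed cells and 19.5 CPM in control cells, 0 of the 7 above 1 CPM had an interval that excluded 1, and the leukocyte marker Ptprc was at 0 in both libraries. The 6 genes of the hypoxia response (Bnip3, Ndrg1, Ero1l, Slc2a1, Vegfa and Pdk1), a list chosen because it was known to stand high, were all at least 1.5-fold higher in the compressed library, with ratios from 1.93 for Vegfa to 6.63 for Bnip3, and their part in the values of the CCN and YAP target genes was not tested. In RNA from a whole culture, fewer cells that express a gene and less of its RNA per cell cannot be told apart.

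Among the CCN genes, Wisp2 and Cyr61 stood lowest, Wisp1 and Ctgf were moderately lower, and Nov could not be separated from no difference. The summed level of the 5 genes was 445 CPM in compressed cells and 641 CPM in control cells. Their median log2 ratio was -0.50, and that of the 5 other genes was -0.51.

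Cyr61 (CCN1), an early-response matrix protein that binds integrins and supports adhesion and angiogenesis, had 2914 counts in compressed cells and 4644 in control cells, or 120.0 and 185 CPM. Its ratio was 0.647 (0.618 to 0.678), 1.54 times lower in the compressed library, and 3.68% of the 14001 genes had a ratio as low or lower. The gene spans chromosome 3 from 145646971 to 145649985 on GRCm38.p6.

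Ctgf (CCN2), connective tissue growth factor, which promotes matrix production and is a classic YAP and TGF-beta target, had 1469 counts in compressed cells and 2006 in control cells, or 60.5 and 80.0 CPM. The ratio of 0.756 (0.706 to 0.809) was closer to 1 than that of Cyr61. Set directly against each other, which removes the scaling of the libraries, the ratio of Cyr61 was 0.857 times that of Ctgf (counting interval 0.790 to 0.930). Ctgf lies on chromosome 10 from 24595442 to 24598683, and because the strand setting of the counting is not given, reads of Gm15270, the lncRNA annotated over it, cannot be told apart from its own.

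Wisp1 (CCN4), a Wnt-induced matrix protein of bone-forming cells, had 5894 counts in compressed cells and 8611 in control cells, or 243 and 344 CPM. Its ratio was 0.706 (0.683 to 0.730), and 6.24% of the 14001 genes had a ratio as low or lower. Wisp2 (CCN5), which lacks the C-terminal cystine-knot module of the other CCN proteins, had 397 counts in compressed cells and 651 in control cells, or 16.3 and 26.0 CPM. Its ratio of 0.629 (0.554 to 0.714) was the lowest point value of the family, with a wider interval that overlapped that of Cyr61. Wisp1 spans chromosome 15 from 66891369 to 66923201 and Wisp2 chromosome 2 from 163820752 to 163833146.

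Nov (CCN3), which in bone cells is known to oppose BMP signalling and differentiation, had only 137 counts in compressed cells and 162 in control cells, or 5.64 and 6.46 CPM. The ratio of 0.873 had an interval of 0.690 to 1.10, so a difference in either direction was not resolved at this depth. Nov lies on chromosome 15 from 54745910 to 54753762, 12.1 Mb from Wisp1. The sixth CCN gene, Wisp3 (CCN6), was not detected in either library, and a floor of 3 counts puts its level at no more than 0.124 CPM in compressed cells and 0.120 CPM in control cells.

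**Figure D3:**
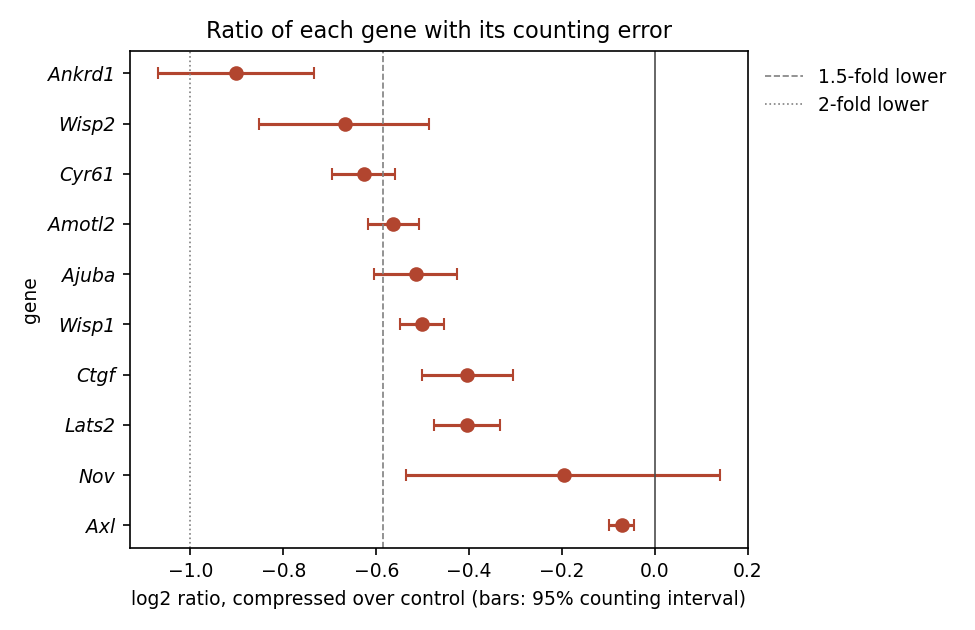
Log2 ratio of compressed over control for each of the 10 genes (points) with the exact 95% counting interval (bars). Dashed and dotted lines mark 1.5-fold and 2-fold lower, and the bar of Nov alone crosses 0, while the bar of Ankrd1 alone reaches past the 2-fold line.

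Receptors through which CCN proteins act on cells were not lower as a group. Of 12 listed, 9 passed 1 CPM, and their median log2 ratio was 0.02. Of these 9 genes, 4 had an interval above 1 and 2 an interval below 1, against 26.3% and 28.6% of the 14001 genes. The highest was integrin beta 3 (Itgb3), a partner of integrin alpha V in binding CCN1 and CCN2, with 41.8 CPM in compressed cells and 30.4 CPM in control cells, a ratio of 1.37 (1.25 to 1.51). The lowest was integrin alpha V itself (Itgav), with 23.1 CPM in compressed cells and 26.3 CPM in control cells, a ratio of 0.877 (0.782 to 0.983). This pair, which forms 1 receptor, stood on opposite sides of 1.

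Ankrd1, an ankyrin repeat cofactor found in the nucleus and the muscle sarcomere and known as one of the most responsive YAP targets, had the lowest ratio of the 10. It had 444 counts in compressed cells and 856 in control cells, or 18.3 and 34.2 CPM, a ratio of 0.535 (0.476 to 0.601). Of the 14001 genes 1.37% had a ratio as low or lower, and 0.176% of the 10817 genes with a mean of at least 5 CPM did. The gene spans chromosome 19 from 36111965 to 36119844, and its upstream sequence carries the pair of GGAATG sites shown above. Its relative Ankrd23 had 122 counts in compressed cells and 157 in control cells, a ratio of 0.802 (0.628 to 1.02), and Ankrd2 had 5 counts in each.

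Amotl2, Ajuba and Lats2 are themselves regulators of the Hippo pathway, and all 3 were lower in the compressed library. Amotl2, an angiomotin-like protein that holds YAP at cell junctions, had 4493 counts in compressed cells and 6851 in control cells, or 185 and 273 CPM, a ratio of 0.677 (0.652 to 0.703). Ajuba, a LIM-domain scaffold that binds LATS kinases and restrains them, had 1688 counts in compressed cells and 2489 in control cells, or 69.5 and 99.3 CPM, a ratio of 0.700 (0.657 to 0.745). Lats2, the kinase that phosphorylates YAP and is induced by it in a feedback loop, had 2743 counts in compressed cells and 3745 in control cells, or 113 and 149 CPM, a ratio of 0.756 (0.719 to 0.794). The group therefore held genes that restrain YAP (Amotl2, Lats2) and a gene that relieves that restraint (Ajuba).

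Each of these 3 had a lower ratio than at least 1 close relative in the same libraries, in pairs chosen after their values were seen. The ratio of Amotl2 was 0.678 times that of Amotl1 (0.642 to 0.716), while against Amot, the founding angiomotin, the interval included 1 (1.04, interval 0.989 to 1.10). The ratio of Lats2 was 0.890 times that of Lats1 (0.835 to 0.948). Ajuba stood at 0.856 times the ratio of Limd1 (0.787 to 0.932) and 0.738 times that of Wtip (0.652 to 0.834), which are LIM proteins of the same family. These comparisons do not depend on library scaling and cover counting error only.

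On the genome the 10 genes lie on 8 chromosomes. Amotl2 spans chromosome 9 from 102717091 to 102733418, Ajuba chromosome 14 from 54567469 to 54577661 and Lats2 chromosome 14 from 57689662 to 57746212, 3.11 Mb from Ajuba. The span of Lats2 overlaps a snoRNA, Gm26440, and a protein-coding model, Gm52140, so its counts may hold reads of those.

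Axl, the receptor tyrosine kinase that binds the ligand Gas6, had the ratio closest to 1 of the 10, with the narrowest counting interval. It had 21468 counts in compressed cells and 23276 in control cells, or 884 and 929 CPM, a ratio of 0.952 (0.934 to 0.970). Of the 14001 genes 41.6% had a ratio as low or lower, so Axl sat near the middle of the table although its interval excluded 1. It spans chromosome 7 from 25756500 to 25788924. Its ligand Gas6 had 1111 counts in compressed cells and 1145 in control cells, a ratio of 1.00 (0.921 to 1.09). The related receptor Tyro3 had 13.5 CPM in compressed cells and 14.3 CPM in control cells, a ratio of 0.943 (0.809 to 1.10), and the ratio of Axl was 1.01 times that of Tyro3 (0.868 to 1.17).

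Ordered by ratio, the genes ran Ankrd1, Wisp2, Cyr61, Amotl2, Ajuba, Wisp1, Ctgf, Lats2, Nov and Axl. For all 9 pairs of neighbours in that order the counting interval of the ratio of their ratios included 1, so their order is not resolved. The ends did differ, the ratio of Ankrd1 being 0.562 times that of Axl (0.501 to 0.632). Levels of different genes are not compared, because transcript lengths were not used here.

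**Figure D4:**
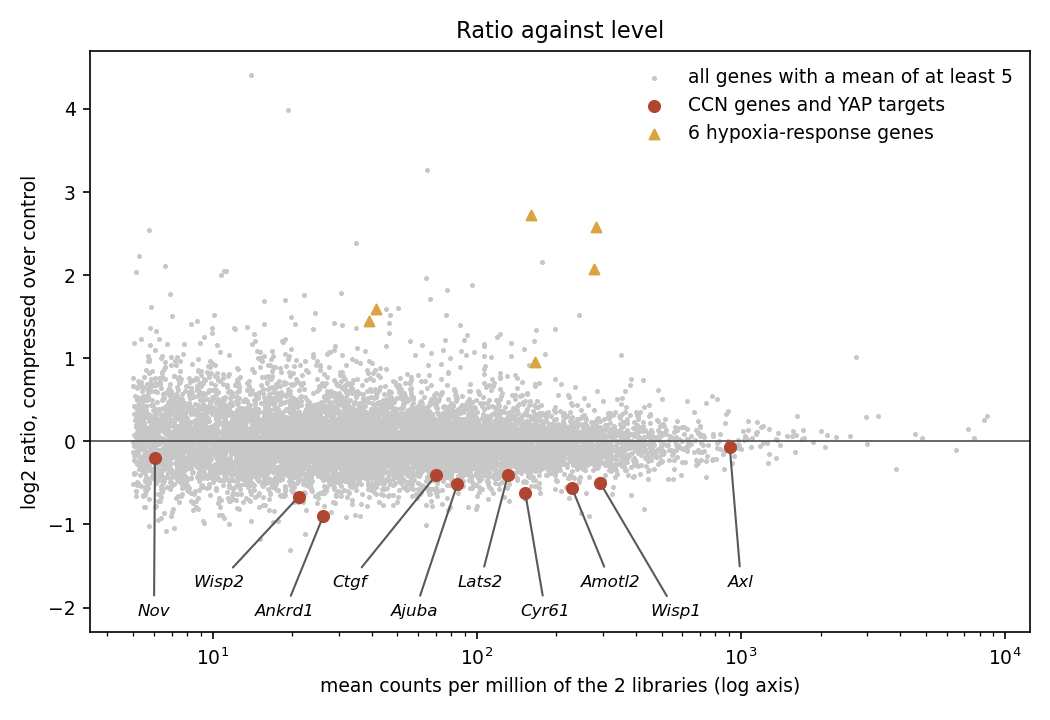
Log2 ratio of compressed over control against the mean CPM of both libraries (log axis) for 10817 genes with a mean of at least 5 CPM (grey), the 10 CCN and YAP target genes (circles) and 6 hypoxia-response genes (triangles). Ankrd1, Wisp2, Cyr61, Amotl2 and Wisp1 lie at the lower edge of the grey cloud at their levels, Axl lies inside it, and the 6 hypoxia genes lie at or above its upper edge.

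The coactivators and their DNA-binding partners went in both directions, whereas the 10 genes all had ratios below 1. Of the 10, Nov had an interval that included 1. Yap1 had 2912 counts in compressed cells and 3103 in control cells, a ratio of 0.968 (0.920 to 1.02). Wwtr1, which encodes TAZ, had 4428 counts in compressed cells and 4038 in control cells, a ratio of 1.13 (1.08 to 1.18). Of the 10 listed coactivator, TEAD and VGLL genes 8 passed 1 CPM, with a median log2 ratio of -0.10. Of these 8 genes, 5 had a ratio below 1, against 51.4% of the 14001 genes. Intervals lay below 1 for 4 and above 1 for 3, against 28.6% and 26.3% of the 14001 genes.

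The 4 TEAD genes split into pairs. Tead4 had 520 counts in compressed cells and 799 in control cells, a ratio of 0.672 (0.600 to 0.751). Tead1, with 11085 counts in compressed cells and 13606 in control cells, had a ratio of 0.841 (0.820 to 0.862). On the other side of 1, Tead2 had a ratio of 1.13 (1.07 to 1.19) and Tead3 of 1.25 (1.13 to 1.40), and the ratio of Tead3 was 1.49 times that of Tead1 (1.34 to 1.66).

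Vgll3, a vestigial-like cofactor that binds TEAD proteins in place of YAP, had the lowest ratio of that list. It was the 1 gene of the list called lower at the 1.5-fold limit, against 3.74% of all genes. It had 4276 counts in compressed cells and 7996 in control cells, or 176 and 319 CPM, a ratio of 0.552 (0.532 to 0.573). Of the 14001 genes 1.55% had a ratio as low or lower. Vgll4, which also competes with YAP for TEAD proteins, had 51.1 CPM in compressed cells and 57.2 CPM in control cells, a ratio of 0.893 (0.827 to 0.964).

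The 18 Hippo kinases and upstream regulators, Lats2 among them, had 12 ratios below 1, against 51.4% of the 14001 genes. Their median log2 ratio was -0.07. Intervals lay below 1 for 10 genes and above 1 for 3, where 28.6% and 26.3% of the 14001 genes had such intervals. At 1.5-fold 1 gene was called lower, against 3.74% of all genes. That gene was Wwc2, a scaffold that activates LATS kinases, with 4013 counts in compressed cells and 6259 in control cells, a ratio of 0.662 (0.636 to 0.688). Lats1 had 4227 counts in compressed cells and 5135 in control cells, a ratio of 0.849 (0.815 to 0.885). The highest ratio was that of the cadherin Dchs1, on 28 counts in compressed cells and 18 in control cells, with an interval of 0.857 to 3.08.

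The 7 scaffolds that bind LATS or YAP, Amotl2 and Ajuba included, all had ratios below 1, against 51.4% of the 14001 genes, and a median log2 ratio of -0.29. Intervals lay below 1 for 4 of the 7, against 28.6% of all genes, and Amotl2 and Ajuba, already counted among the 10 genes, were in those 4. Amot was the 1 scaffold called lower at 1.5-fold, against 3.74% of all genes, with 4970 counts in compressed cells and 7895 in control cells, a ratio of 0.650 (0.627 to 0.673). Amotl1 had a ratio of 0.998 (0.959 to 1.04).

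A list of 16 other YAP targets, recalled from published target signatures, had a median closer to 0 than the 10 genes, a difference between lists that was not tested. Of these 15 passed 1 CPM, Igfbp3 having 0 counts in both libraries. Among those 15 genes 12 had a ratio below 1, against 51.4% of the 14001 genes, and the median log2 ratio was -0.12. Intervals lay below 1 for 6 genes and above 1 for 3, against 28.6% and 26.3% of the 14001 genes. At the 1.5-fold limit 0 were called lower and 1 higher, against 3.74% and 7.34% of all genes. The lowest was the RNA-binding protein gene Rbms3, with 52.7 CPM in compressed cells and 69.0 CPM in control cells, a ratio of 0.765 (0.711 to 0.822). The gene called higher was Gadd45a, a stress- and p53-induced gene, with 576 counts in compressed cells and 392 in control cells, a ratio of 1.52 (1.33 to 1.73) whose interval spans the limit.

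**Figure D5:**
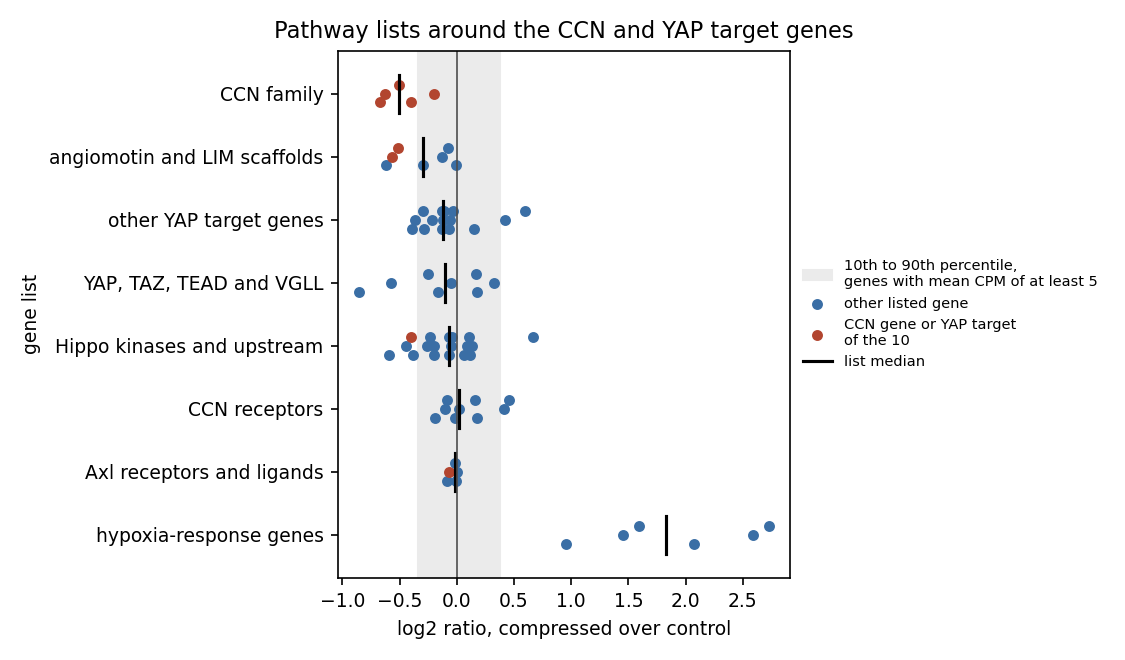
Log2 ratio of compressed over control for each gene above 1 CPM in 8 gene lists, with the list median as a bar and the 10th to 90th percentile of genes with a mean of at least 5 CPM shaded. The CCN family lies left of 0 as a whole, the lists of TEAD, Hippo and receptor genes straddle 0, and the hypoxia-response genes lie right of the shaded band.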

How the data were processed

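Read counts per gene were deposited by the authors for 2 libraries, with no normalization. Per the submitters' processing notes, HISAT2 and GRCm38 were used. Neither the labels nor the file header state which tool and annotation gave the counts, whether strand was used or how multiply aligned reads were counted. The treatment tag assigned each library to its group, since the treatment text attached to both names compressive force.

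Counts were scaled with TMM in edgeR 4.0.16 (R 4.3.3) over the whole table and expressed as CPM. Ratios come from these CPM, and log2 ratios add a prior count of 0.5. Intervals are exact 95% conditional binomial (Clopper-Pearson) intervals (scipy 1.17.1), and those of a pair of genes use a normal approximation to the log ratio of ratios. All intervals and floors cover counting error only, as 1 library per group gives no measure of variation between cultures. They also treat reads as independent molecules, which reads are not. A gene was called at 1 CPM or more in either library, a ratio past 1.5-fold or 2-fold and an interval excluding 1. No test was run, as 1 library per group leaves no residual degrees of freedom. The interval and calling steps were tested on simulated counts that held counting error only. Such counts cannot show how the calls fare with variation between cultures.

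Beyond the 10 genes, those named are every gene of the pathway lists called at 1.5-fold, the highest and lowest of each pathway list, and Yap1, Wwtr1, Tead1 to Tead4, Lats1, Gas6 and Wisp3. Amotl1, Limd1 and Wtip in the paired comparisons, Vgll1, Vgll2, Vgll4, Ankrd2, Igfbp3 and the cell markers were added to these. Crim1 and Ptpn14 were named because their windows held the TEAD core motif. The genes and lists were chosen with earlier results of these data known. Older symbols were matched to current ones in the RefSeq table of GRCm38.p6, which held all 10 genes. Alternatives were total-count scaling, DESeq2 1.42.0 size factors, upper-quartile factors, a loess fit on abundance, CPM minima of none and 5, and a prior count of 5.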

Additional observations from a re-analysis of the deposited data

How the results depend on the processing

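Of the alternatives, only the 3 other scalings and the loess fit could move the ratios and intervals of the 10 genes. Under these 4, all 10 ratios stayed below 1, 9 intervals lay below 1, and 3 genes were called at 1.5-fold and 0 at 2-fold. The CPM minima, which all 10 genes passed, and the prior count could not change those counts. The median log2 ratio of the 10 ran from -0.52 with DESeq2 size factors to -0.48 with the loess fit. Single values ranged from -0.91 to -0.89 for Ankrd1, -0.64 to -0.60 for Cyr61, -0.42 to -0.37 for Ctgf and -0.08 to -0.06 for Axl. Counts over all genes depended on the CPM minimum. At a minimum of 5 CPM the 1.5-fold limit called 549 genes higher and 232 lower, against 1027 and 523 at 1 CPM, and the 2-fold limit called 156 higher and 13 lower, against 436 and 141. With no minimum the 2-fold limit called 781 higher and 380 lower. Without a minimum the median log2 ratio of the list of Ankrd1 and its relatives, Ankrd1 included, was -0.32 in place of -0.61. That of the markers of other cell types was -0.13 in place of 0.11, as more genes entered both lists. Col1a1 had a log2 ratio of 0.04, and of -0.021 with the loess fit, and the cause was not tested. No paired analysis was possible because each group has 1 library. Depth limits Nov most among the 10 genes.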

Other observations

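The TEAD core motif was also found in promoter windows of other listed genes. Of the 8 listed coactivator, TEAD and VGLL genes with a window, 6 (75%) held CATTCC on either strand, against 16.6% of all genes. Yap1, Wwtr1, Vgll1, Vgll3 and Vgll4 had 1 site each and Tead3 had 3, while Tead2 and Vgll2 had none. Of the 16 other YAP targets, 10 had a window and 2 of these (20%) held the motif, Crim1 and Ptpn14. Crim1 had a ratio of 0.779 (0.748 to 0.811) and Ptpn14 of 0.913 (0.823 to 1.01). Ratios of the coactivator, TEAD and VGLL genes with a site did not share a direction, with Vgll3 at 0.552 and Tead3 at 1.25. Wwc2 held 3 sites and had a ratio of 0.662, whereas Wtip held 4 sites and had a ratio of 0.949.

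The core of the hypoxia response element, ACGTG on either strand, was found in 4 of the 5 hypoxia-response genes with a window, against 21.8% of all genes and 29.6% of the genes that passed 1 CPM. Of the 6 CCN and YAP target genes with a window it was found in 1, Lats2, where both matches are the strands of a single CACGTG. These counts describe letters in the windows and were not tested.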
